A study of Mus musculus with 2 samples.

Results

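A set of 40 genes that serves protein folding, quality control and stress signalling in the endoplasmic reticulum was compared between eosinophils and dendritic cells of the mouse small intestine. The genes were listed by name, and every probe set whose single annotated gene was one of them was taken. Of the 40 genes, 39 had such a probe set (84 probe sets in all), out of 12393 genes on the arrays. Where a gene had several, the one brightest on average over both arrays (log2) stood for it. The study sorted both populations by flow cytometry from the lamina propria, the connective tissue under the gut epithelium, of C57BL/6 mice aged 8 weeks, and neither population was stimulated. The dendritic cells were gated as CD11c+MHCII+, and the eosinophils as CD11b+CD11c(int)MHCII-SiglecF+. Each population was measured on 1 array, so there is no replicate error and no test, and each difference describes these 2 arrays. The number of mice behind each sort is not stated in the labels.

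The endoplasmic reticulum is where secreted and membrane proteins enter the secretory route, fold, receive sugar chains and form disulfide bonds. When unfolded proteins build up there, the sensors IRE1alpha, PERK and ATF6 start the unfolded protein response, which slows translation and induces chaperones, degradation factors and the transcription factors XBP1 and ATF4. The IRE1alpha and XBP1 arm is known for its part in highly secretory cells. Mouse work has tied it to the survival of dendritic cells and to the development of eosinophils.

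A signal was called above the floor when it reached 134.7 units, the midpoint (median) of the signals pooled over both arrays. Dimmer signals were raised to the floor, so a ratio with 1 dim side is a lower bound, and a gene under the floor on both arrays was given no ratio. The 95th percentile of genes not expected in these cells (germ line, lens, hair, olfactory and retinal genes) was 227 units, so a signal between these values may be background. The pooled SD between probe sets of the same gene was 0.73 (log2), or 1.65-fold, over 1766 genes, which is the only spread these data hold. Markers of each population mostly followed the labels. All 10 dendritic cell markers on the array were above the floor in dendritic cells, and 5 of them passed it on the eosinophil array too. Itgae, Irf8 and Ccr7 were under it in eosinophils, while Sirpa and Cd24a, which eosinophils also express, were brighter there. Zbtb46 and Batf3 were dimmer there by only 1.48-fold and 2.01-fold. Summed over the 10, the eosinophil array was the brighter, with 75354 against 58470 units. Of 7 eosinophil markers, 6 were above the floor in eosinophils and 1, Adgre1, in dendritic cells, while the granule gene Prg2 was under it on both. The ratio of 3' to 5' control signal was 9.0 in dendritic cells and 6.38 in eosinophils for Actb, and 6.58 and 9.81 for Gapdh.

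Of the 39 genes, 38 reached the floor on 1 array or both, 35 of them on both. The folding and stress genes were, as a set, dimmer in eosinophils: 25 of the 38 were dimmer and 13 brighter, with a median log2 difference (eosinophils minus dendritic cells) of -0.54, where all 7994 genes measured had a median of 0.16. At least 2-fold brighter in dendritic cells were 11 of the 38, or 28.9%, against 15.5% of all genes measured, and 4 were brighter by that much in eosinophils, or 10.5% against 19.0%. These shares of all genes measured also stand beside the 2-fold counts of the role groups and other lists given below. At 4-fold the counts were 5 in dendritic cells, against 5.35% of all genes measured, and none in eosinophils, also against 5.35%. The remaining 23 had ratios under 2-fold after the floor, of which those of Syvn1 and Trib3 are lower bounds. With the floor at the 25th percentile these 2 stood at -2.06 and -1.62 on the log2 scale, and 13 genes were past 2-fold toward dendritic cells. That floor also put Pdia4, a lower bound too, at 2.77, which made it 1 gene past 4-fold toward eosinophils. The 5 genes past 4-fold toward dendritic cells were Herpud1, Ppp1r15a, Sec61b, Sdf2l1 and Creld2, and the 4 at least 2-fold brighter in eosinophils were Spcs3, Xbp1, Pdia4 and Spcs1.

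These splits depended on the scale set between the arrays. Eosinophils held the brighter side of 26.7% of the genes at least 2-fold apart as deposited (4 of 15), 15.8% after centring on the array medians (3 of 19), 42.9% after centring on housekeeping genes (6 of 14) and 4.0% after centring on the hybridisation spike controls (1 of 25). At 4-fold, housekeeping centring gave 3 genes brighter in dendritic cells and 2 in eosinophils. The 18 spike control probe sets had a median 2.06-fold higher in eosinophils, and this centring moved the median of all genes to -0.63. With it, 4 of the 38 genes stayed brighter in eosinophils (Spcs1, Spcs3, Pdia4 and Xbp1), so the direction of Ssr3, Spcs2, Sec11c, Hsp90b1, Dnajc10, Manf, Canx, Derl2 and Eif2ak3 holds on the deposited scale and turned with this centring. With housekeeping centring 17 were brighter in eosinophils, adding Edem1, Derl1, Atf6 and Ddit3. The median of the folding and stress genes lay below that of all genes measured on the deposited scale and under each of the 10 alternatives run, by 0.46 to 0.80 on the log2 scale. Centring moves every gene by the same amount, so it could change this gap only through the floor.

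**Figure D1:**
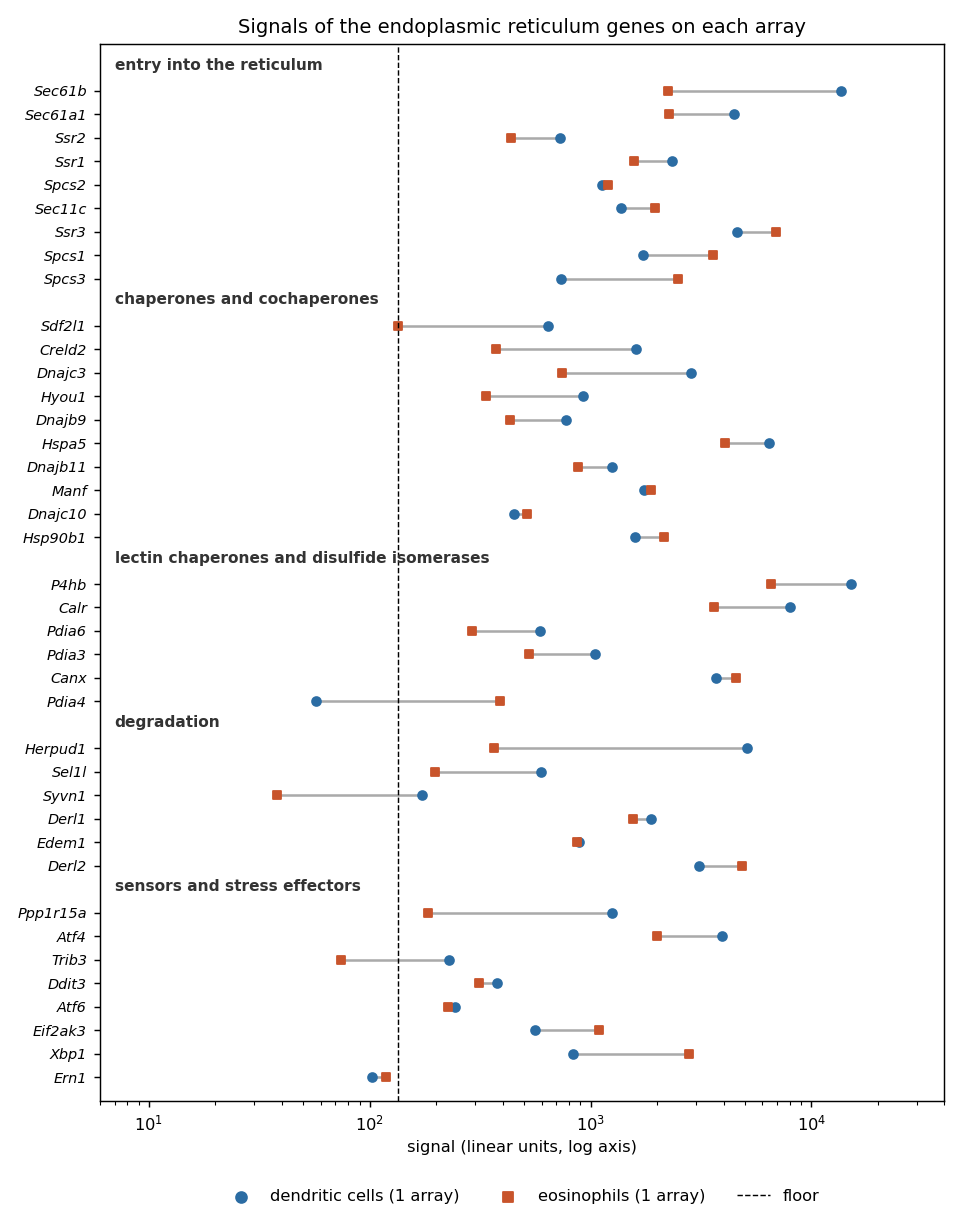
Signal of the probe set standing for each of the 39 genes on the dendritic cell array (circles) and the eosinophil array (squares), on a log axis in linear signal units, grouped by role, with the floor of 134.7 units as a dashed line. The widest gaps toward dendritic cells are Herpud1, Ppp1r15a and Sec61b, Xbp1 and Spcs3 lie further right in eosinophils, and levels of different genes are not comparable because each has its own probes.

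**Figure D2:**
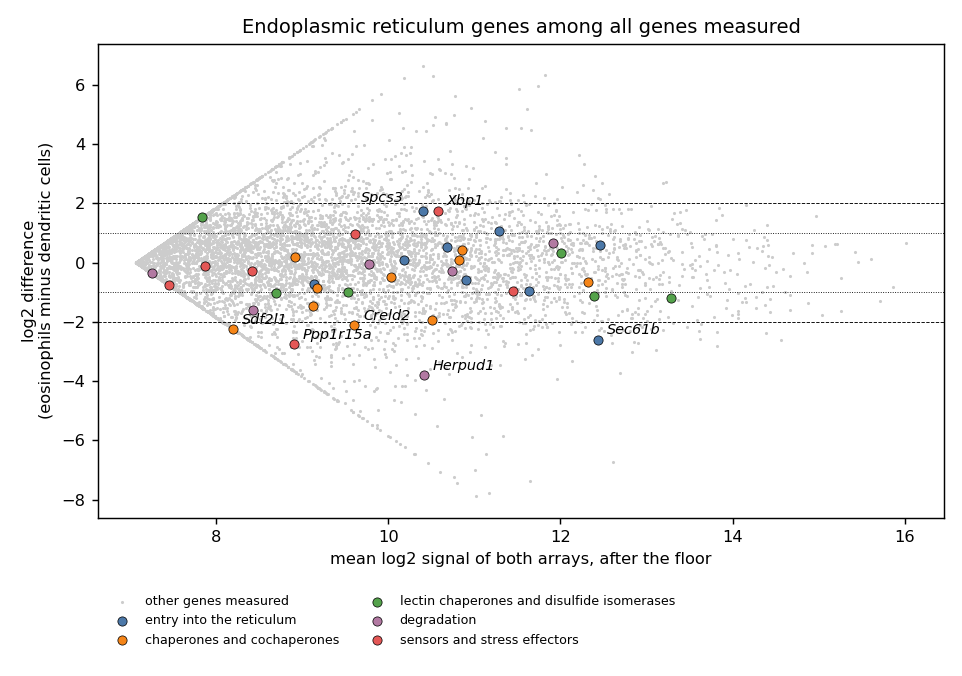
Log2 difference (eosinophils minus dendritic cells) against the mean log2 signal after the floor, for the 7994 genes measured (grey) and the 38 folding and stress genes measured (coloured by role). Dotted lines mark 2-fold and dashed lines 4-fold, and 25 of the 38 lie below 0.

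Many genes of this set are known to carry a DNA element through which ATF6 and XBP1, together with NF-Y, act on transcription. The endoplasmic reticulum stress response element (ERSE, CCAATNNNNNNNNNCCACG) was searched on both strands in windows from 250 bases before to 50 bases after the start of each gene, as RefSeq gives them for GRCm38.p6. Of the 40 genes, 32 had a window, and 8 of these held the ERSE, against 37 of all 27025 genes with a window (0.137%). The element was defined in the literature on promoters of this set, so its presence here is a description of the genes and not independent of how they came to be listed. The matches are shown with the neighbouring bases on the strand of the gene, from 5′ to 3′, with the fixed letters of the element in capitals (CGTGG and ATTGG where it runs the other way).
Hspa5, chr2:34772013-34772055 (+): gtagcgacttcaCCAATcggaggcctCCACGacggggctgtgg
Hsp90b1, chr10:86705626-86705668 (-): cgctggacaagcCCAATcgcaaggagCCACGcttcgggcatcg
Hsp90b1, chr10:86705521-86705563 (-): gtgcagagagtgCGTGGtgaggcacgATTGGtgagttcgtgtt
Calr, chr8:84847063-84847105 (-): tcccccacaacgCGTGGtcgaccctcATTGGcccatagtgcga
Canx, chr11:50325788-50325830 (-): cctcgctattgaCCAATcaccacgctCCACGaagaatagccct
Creld2, chr15:88819508-88819550 (+): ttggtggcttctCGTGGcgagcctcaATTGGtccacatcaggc
Dnajc3, chr14:118937815-118937857 (+): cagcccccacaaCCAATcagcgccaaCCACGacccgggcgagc
Pdia6, chr12:17266479-17266521 (+): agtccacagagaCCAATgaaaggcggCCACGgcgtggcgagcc
Syvn1, chr19:6046520-6046562 (+): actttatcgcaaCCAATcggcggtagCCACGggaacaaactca
The related ERSE-II (ATTGG, any 1 base, then CCACG, on both strands) was found in 2 other genes of the set, Herpud1 and Dnajb11, against 12 of all genes (0.0444%), so no match of these elements overlapped another. The match in Herpud1, the gene furthest apart between the arrays, lay 47 bases before the start, and that in Dnajb11 lay 12 bases after it.
Herpud1, chr8:94386365-94386399 (+): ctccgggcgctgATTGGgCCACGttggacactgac
Neither the XBP1 element TGACGTGG (0.714% of all genes) nor the ATF4 element TGATGCAAT (0.222%) was found in the 32 windows, which says only that these letters are not there.

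The 8 genes with an ERSE had a median log2 difference of -0.85, with 4 of them past 2-fold toward dendritic cells and 0 toward eosinophils. Among all genes measured, 15.5% and 19.0% were past 2-fold in these directions. The other 22 measured genes with a window had a median of -0.54, with 6 brighter in dendritic cells by that much and 3 in eosinophils. Genes with the element therefore lay on both sides of 0, from Creld2 at -2.11 to Hsp90b1 at 0.43. Among them, the probe sets of Dnajc3 ran from -1.94 to 1.36, and Syvn1 was under 227 units on both arrays. Outside the set, 29 genes held the ERSE, of which 6 were measured, with 1 past 2-fold toward dendritic cells, 3 toward eosinophils and a median of 0.66.

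**Figure D3:**
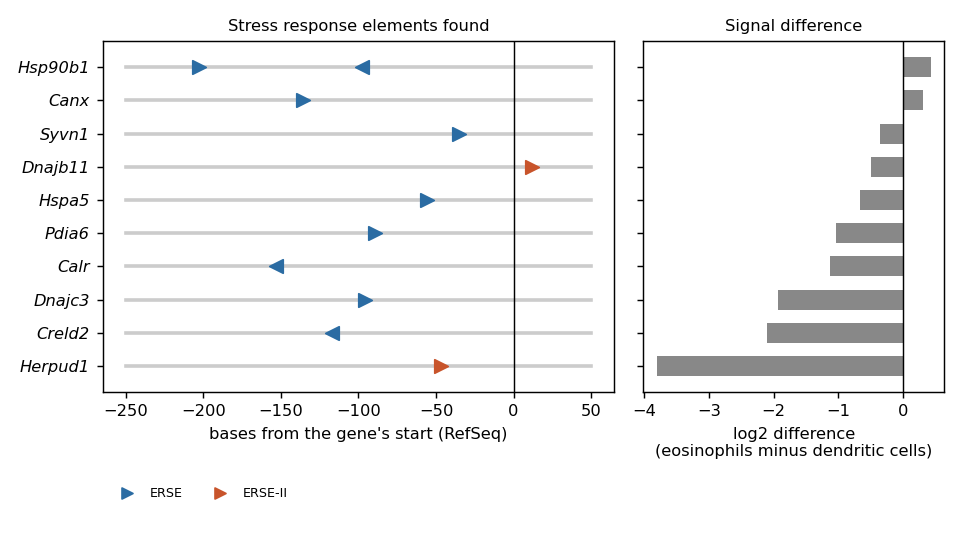
Left, position of each ERSE (blue) and ERSE-II (orange) match in bases from the start of the gene, pointing right where the element runs with the gene and left where it runs against it. Right, log2 difference (eosinophils minus dendritic cells) of the same gene, which is below 0 for 8 of the 10 genes, and for 25 of the 38 genes measured in the set.

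Among the genes of the set for entry into the reticulum, the 2 channel subunits measured and the signal peptidase stood on opposite sides. Sec61b encodes a small subunit of the SEC61 channel through which nascent chains pass. It gave 13597 units in dendritic cells against 2245 units in eosinophils, a 6.06-fold difference from its only probe set of its own. Sec61a1, the pore-forming subunit, gave 4442 and 2269 units, 1.96-fold brighter in dendritic cells, and its 4 probe sets above the floor differed by -1.15 to -0.48 on the log2 scale. Sec61g, the third subunit, had no probe set of its own. A probe set annotated to Sec61g and 2 further genes gave 20492 units in dendritic cells against 5768 units in eosinophils. Sec61a2, a paralog of Sec61a1 outside the set, went the other way. It gave 150 units in dendritic cells against 219 units in eosinophils (1.46-fold), both within the range of background genes.

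Signal peptidase, which cuts the signal sequence from proteins as they enter, was brighter in eosinophils in each of its 4 subunits of the set. Spcs3 gave 2482 units in eosinophils against 737 units in dendritic cells, a 3.37-fold difference from 1 probe set. Spcs1 gave 3598 and 1733 units, 2.08-fold brighter in eosinophils, with 3 probe sets between 0.91 and 1.19 on the log2 scale. The catalytic subunit Sec11c gave 1962 units in eosinophils against 1379 units in dendritic cells (1.42-fold), and Spcs2 gave 1199 and 1127 units (1.06-fold). Sec11a, the other catalytic subunit, which is not in the set, was 3.20-fold brighter in eosinophils. On the scale of the spike controls the log2 differences were 0.71 for Spcs3, 0.01 for Spcs1, -0.53 for Sec11c and -0.95 for Spcs2, so the direction of the last 2 depends on the scale.

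The translocon-associated protein complex, which assists the channel, was split. Ssr1 gave 2331 units in dendritic cells against 1566 units in eosinophils (1.49-fold), and Ssr2 gave 729 and 436 units (1.67-fold). Ssr3 went the other way, with 4611 units in dendritic cells against 6910 units in eosinophils (1.5-fold). The median of the 9 genes measured for entry was 0.09, the only role group with a median above 0 as deposited. It was -0.19 after centring on the array medians and -0.95 on the spike scale.

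Chaperones and cochaperones were mostly dimmer in eosinophils, with 7 of 10 dimmer, 4 of them at least 2-fold, and a median of -0.76. Hspa5, the HSP70 of the reticulum also called BiP, holds unfolded chains and restrains the stress sensors. It gave 6448 units in dendritic cells against 4050 units in eosinophils (1.59-fold), and the other probe set, at 6477 and 1343 units, differed by -2.27 on the log2 scale. Hsp90b1, the HSP90 of the reticulum or GRP94, gave 1595 and 2142 units, 1.34-fold brighter in eosinophils, and its second probe set pointed the same way at 0.21. The 2 major chaperones thus differed in opposite directions on the deposited scale, both by less than 2-fold with the probe sets that stood for them.

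Helpers of BiP and stress-induced proteins of the reticulum lumen held several of the wider differences of this group. Sdf2l1, a partner of the BiP cycle, gave 643 units in dendritic cells against 134.8 units in eosinophils, which is at the floor, so its 4.77-fold difference may be a lower bound. Creld2, a reticulum protein induced by stress, gave 1611 and 374 units (4.31-fold). Hyou1, which exchanges nucleotide on BiP, gave 928 and 337 units (2.75-fold), and both of its probe sets above the floor were dimmer there, at -1.46 and -1.702 (log2).

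The J-domain cochaperones, which feed substrates to BiP, were less uniform. Dnajc3, also called p58IPK, gave 2855 units in dendritic cells against 745 units in eosinophils (3.83-fold), but its 5 probe sets ran from -1.94 to 1.36 on the log2 scale, with 3 dimmer and 2 brighter in eosinophils. Dnajb9 gave 776 and 431 units (1.80-fold) and Dnajb11 gave 1245 and 879 units (1.42-fold), each from 1 probe set. Dnajc10, a J-protein that also reduces disulfides, gave 452 units in dendritic cells against 516 units in eosinophils (1.14-fold), with probe sets from -1.37 to 0.84. Manf, a secreted factor of stressed cells, was nearly level at 1749 and 1875 units (1.07-fold).

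Lectin chaperones and disulfide isomerases had a median of -1.02 over 6 genes measured, the lowest of the 5 role groups as deposited though not with probe sets without a suffix or with the dimmest measured probe set, with 3 past 2-fold toward dendritic cells and 1 toward eosinophils. Calreticulin and calnexin bind the same kind of sugar-bearing folding intermediates, Calr as a soluble and Canx as a membrane protein. Calr gave 7975 units in dendritic cells against 3628 units in eosinophils (2.20-fold), and all 3 of its probe sets lay between -1.57 and -1.14 on the log2 scale. Canx gave 3690 and 4575 units, 1.24-fold brighter in eosinophils, while its other 2 probe sets differed by -0.27 and -0.21, so its direction is not settled by these probes.

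The isomerases form and reshuffle disulfide bonds. P4hb, which encodes PDI itself, gave 15132 units in dendritic cells against 6583 units in eosinophils (2.30-fold). Pdia3, the partner isomerase of calreticulin and calnexin and a part of the MHC class I loading complex, gave 1051 and 526 units, just short of 2-fold. Pdia6 gave 592 and 289 units (2.05-fold), and a further probe set stood at -0.38 (log2). Pdia4 alone was brighter in eosinophils, at 388 units against 57.0 units, under the floor, or at least 2.88-fold. Its second probe set was under the floor on both arrays.

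Of the 6 degradation genes 5 were dimmer in eosinophils, 2 of them at least 2-fold, with a median of -0.32, and 1, Derl2, was brighter. Herpud1 encodes a membrane protein that helps to assemble the machinery that exports misfolded proteins to the proteasome. It gave 5092 units in dendritic cells against 366 units in eosinophils, a 13.9-fold difference. Its second probe set gave 923 and 581 units, -0.67 on the log2 scale, so both were dimmer in eosinophils but the size depended on the probe set.

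Sel1l and Syvn1 encode the adaptor and the ubiquitin ligase (HRD1) of the main degradation complex. Sel1l gave 596 units in dendritic cells against 198 units in eosinophils (3.0-fold), the latter within the range of background genes, and its 3 probe sets above the floor ran from -1.59 to 0.43 on the log2 scale. Syvn1 was dim, at 172 units in dendritic cells against 38.2 units in eosinophils, or at least 1.28-fold. Derl1 and Derl2, derlins of the export channel, gave 1878 and 1549 units (1.21-fold) and 3093 and 4843 units (1.57-fold, brighter in eosinophils). The probe sets of Derl1 ran from -0.28 to 0.69, and both of Derl2 were brighter in eosinophils, at 0.65 and 1.91. Edem1, a lectin that hands over misfolded glycoproteins, was level at 889 and 865 units with its brightest probe set, while the other gave 173 units in dendritic cells against 885 units in eosinophils.

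Among the sensors and stress effectors, Xbp1 and Ppp1r15a stood furthest apart, in opposite directions. Xbp1, the transcription factor whose mRNA IRE1alpha splices, gave 2787 units in eosinophils against 833 units in dendritic cells (3.35-fold). All 4 probe sets of Xbp1 pointed that way, at 0.47, 0.47, 1.74 and 2.05 on the log2 scale. The direction of the 1 value per gene was the same under each of the 10 alternatives, from 0.47 to 2.12. Centring on the spike controls removed 1.04 on the log2 scale, more than the 0.47 of 2 of the probe sets. The direction of those 2 probe sets therefore depends on the scale. Spliced and unspliced Xbp1 mRNA were not told apart here.

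The sensors themselves differed less or were dim. Ern1, which encodes IRE1alpha, was under the floor on both arrays in all 3 probe sets, with 103 units in dendritic cells against 118 units in eosinophils for the brightest, so no difference was detectable at this brightness. Eif2ak3, which encodes PERK, gave 562 units in dendritic cells against 1087 units in eosinophils (1.93-fold). Atf6 gave 243 and 226 units (1.07-fold), the latter within the range of background genes.

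Effectors downstream of PERK were dimmer in eosinophils in each of the 4 genes on the deposited scale, although Ddit3 turned to 0.10 after housekeeping centring. Atf4, the transcription factor whose translation rises when PERK is active, gave 3921 and 1997 units (1.96-fold), with its second probe set above the floor at -0.36 on the log2 scale. Ddit3, which encodes CHOP, gave 376 units in dendritic cells against 311 units in eosinophils (1.21-fold). Trib3, a pseudokinase that binds ATF4, gave 229 units and, under the floor, 74.3 units, or at least 1.7-fold. With the floor raised to the 227 units of background genes, the log2 difference of Trib3 was -0.012. Ppp1r15a encodes GADD34, the phosphatase subunit that lets translation resume, and gave 1245 units in dendritic cells against 184 units in eosinophils (6.77-fold), the latter also within the range of background genes.

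Heat shock genes of the cytosol and mitochondria and immediate early genes, which cell isolation is known to induce, were dimmer in eosinophils along with these effectors. Of 17 such genes measured, 16 were dimmer in eosinophils, 12 of them at least 2-fold and 8 at least 4-fold, with a median of -1.40 and a summed signal of 71265 units in dendritic cells against 26975 units in eosinophils. Fosb was at least 17.2-fold and Hspa1b 8.68-fold brighter in dendritic cells, and Egr1 was 1.34-fold brighter in eosinophils. Hspa1b gave 220 units in eosinophils, within the range of background genes, and its second probe set differed by -0.82 on the log2 scale. Its paralog Hspa1a was nearly level (1.08-fold). The part of these heat shock and immediate early genes in the differences of Ppp1r15a, Atf4, Herpud1 and the chaperones was not tested.

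Plasma cells of the lamina propria are rich in reticulum genes, and of their markers Jchain and Tnfrsf17 were under the floor on both arrays. Sdc1 gave 525 units in dendritic cells and was under the floor in eosinophils, Prdm1 gave 417 units in eosinophils and was under the floor in dendritic cells, and Ighm was above the floor on both (630 and 450 units). Of 9 plasma cell markers on the arrays, 5 were above the floor in dendritic cells and 5 in eosinophils, with summed signals of 3107 and 1587 units. Irf4, which dendritic cells express too, gave 1213 of the units in dendritic cells. Of 9 epithelial markers, 3 were above the floor in dendritic cells and 2 in eosinophils, with summed signals of 1070.4 and 1719 units, and Agr2, Cdh1, Krt8, Krt20 and Vil1 were under it on both. Krt18 was at least 6.45-fold brighter in eosinophils (870 units), and Epcam was above the floor on both (336 and 433 units). Of 8 macrophage markers, 4 were above the floor in dendritic cells and 3 in eosinophils, with summed signals of 4465 and 2126 units. Among these, dendritic cells had 3.83-fold more signal for Cd68 and at least 2.70-fold more for C1qb. Mertk ran opposite, passing the floor only on the eosinophil array (258 units). Cx3cr1, C1qc and Fcgr1 were under the floor on both. Of 7 T cell markers, 3 were above the floor in dendritic cells and 2 in eosinophils, with summed signals of 4665 and 691 units. Cd8a gave 3732 of the units in dendritic cells, and Cd3e was above the floor on both (557 and 336 units). Of 6 stroma markers 2 were above it on each array, and of 3 neutrophil markers 1 in dendritic cells and 2 in eosinophils. Pdgfra (789 units) and Cxcr2 (570 units) were above it in eosinophils only. The part of such cells was not tested. In sorted bulk RNA, fewer cells that express a gene and less RNA per cell cannot be told apart.

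**Figure D4:**
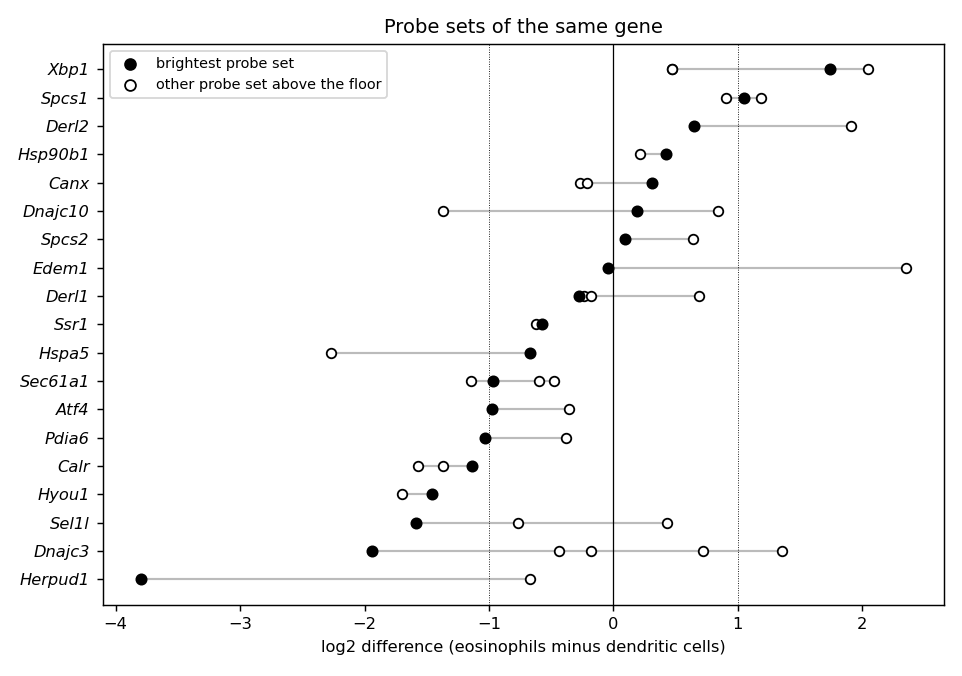
Log2 difference (eosinophils minus dendritic cells) of each probe set above the floor on at least 1 array, for the 19 genes of the set with 2 or more such probe sets. Filled points are the probe sets that stand for the gene, and 13 of the 19 genes have all probe sets on the same side of 0.

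How far the probe sets of a gene agreed varied across the set. Of 19 genes with 2 or more probe sets above the floor, 13 had all of them on the same side of 0 and 6 had them on both sides. The 8 genes of that group at least 2-fold apart were Dnajc3, Sel1l, Spcs1, Hyou1, Calr, Pdia6, Herpud1 and Xbp1, and all probe sets pointed one way for the last 6. Only Hyou1 and Calr were at least 2-fold apart in every probe set. The other 19 genes measured had 1 probe set above the floor, so nothing checks Sec61b, Sdf2l1, Creld2, P4hb, Ppp1r15a, Spcs3 or Pdia4 within these arrays.

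Other genes of the reticulum, from 6 lists outside the set, differed less in 1 direction. Among the 86 measured, 17 had at least 2-fold more signal in dendritic cells and 12 in eosinophils, against the 15.5% and 19.0% of all genes measured, with a median of -0.20. In either direction 33.7% of them were at least 2-fold apart, near the 34.5% of all genes measured. Of those at least 2-fold apart, eosinophils held the brighter side of 41.4% as deposited (12 of 29), of 8 of 32 after centring on the array medians, of 63.6% after centring on housekeeping genes (21 of 33) and of 9.3% on the spike scale (5 of 54). Oxidative folding genes had 5 of 13 past 2-fold toward dendritic cells and 1 toward eosinophils. Among them Qsox1, a sulfhydryl oxidase, was 5.86-fold and the peroxiredoxin Prdx4 at least 4.22-fold brighter in dendritic cells. The oxidase Ero1a, which recharges PDI, was 2.86-fold and the thioredoxin-like Erp44 1.65-fold brighter in eosinophils. Ero1b, the paralog of Ero1a, was 2.44-fold brighter in dendritic cells. On the log2 scale the probe sets of Qsox1 ran from -2.55 to -0.531, of Ero1a from 0.467 to 1.514 and of Ero1b from -1.286 to 0.065.

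Of 16 genes of N-glycosylation and glucose trimming measured, 2 had at least 2-fold more signal in dendritic cells and 1 in eosinophils. The former were Dad1 (6.21-fold) and Rpn2 (2.58-fold), subunits of the oligosaccharyltransferase that adds the sugar chain, and the latter was Mogs (4.38-fold), the glucosidase that trims it first. Of 14 genes of targeting and translocation, 2 were at least 2-fold brighter in each direction. Ssr4, the fourth subunit of the translocon-associated complex, gave 8321 units in dendritic cells against 763 units in eosinophils (10.9-fold), but a second probe set differed by 0.04 on the log2 scale. In the tail-anchored protein pathway Get3 was 2.68-fold brighter in dendritic cells, and Get4 was 5.27-fold brighter in eosinophils with a second probe set the other way at -0.31.

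Of 16 further degradation genes, 3 were at least 2-fold brighter in each direction. Selenos, a partner of the derlins, was 3.76-fold and the ubiquitin-conjugating enzyme Ube2j1 2.69-fold brighter in dendritic cells, and Herpud2, the paralog of Herpud1, was 2.26-fold brighter in eosinophils, opposite to Herpud1. The deglycosylating enzyme Ngly1 was at least 2.95-fold brighter in eosinophils. Of 13 stress signalling genes measured, 2 stood at least 2-fold apart in each direction. The stress factor Atf3, also counted among the immediate early genes, was 6.14-fold and the antioxidant regulator Nfe2l2 2.27-fold brighter in dendritic cells. Cebpb, a partner of ATF4 and CHOP and a myeloid lineage factor, was 17.7-fold brighter in eosinophils, at 2584 units against 146 units, the latter within the range of background genes, and Nupr1 was at least 5.06-fold brighter.

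**Figure D5:**
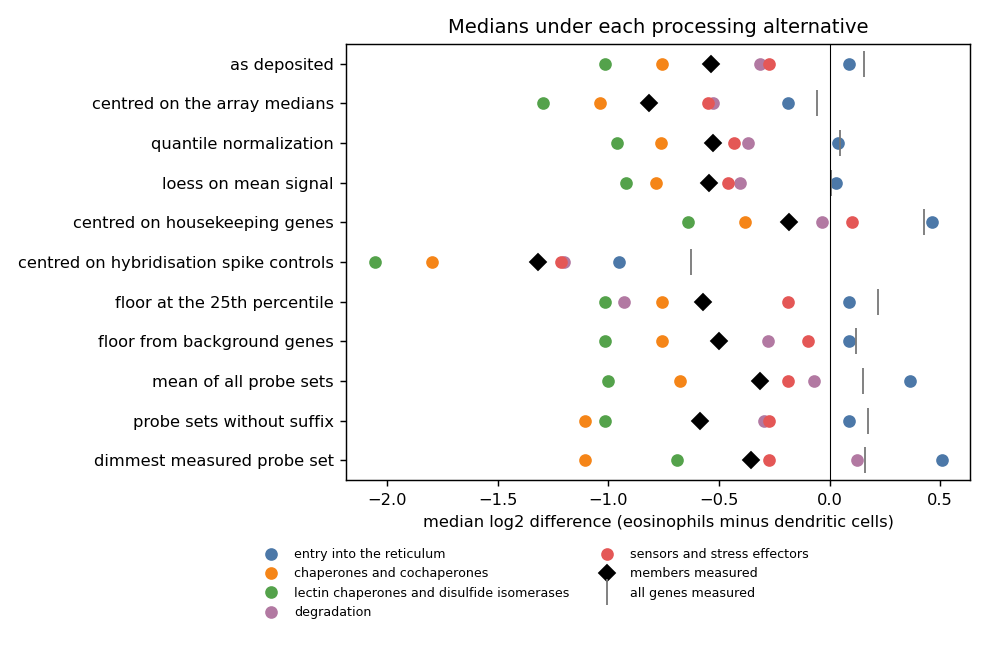
Median log2 difference (eosinophils minus dendritic cells) of each role group (circles), of the folding and stress genes measured (diamonds) and of all genes measured (vertical ticks), as deposited and under each of 10 processing alternatives. The diamonds run from -1.32 on the spike scale to -0.18 after centring on housekeeping genes and lie left of the tick under each of them. Centring moves diamond and tick together, apart from effects of the floor.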

How the data were processed

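RNA of both sorts was extracted with Trizol and labelled as biotinylated cDNA with the Ovation Biotin kit, per the labels' protocols. The authors deposited 1 linear intensity per probe set and array. The submitters' processing notes name MAS5, version 5.0. The mean without the lowest and highest 2% of signals was 500.3 and 500.2 units, so the arrays share a global scale. No detection calls were used. Of 22690 probe sets, 64 were controls, 20393 had 1 annotated gene, 691 several (not named) and 1606 none listed. Symbols were updated by Entrez identifier with a RefSeq table of GRCm38.p6.

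With Python 3.11.15, pandas 2.3.3 and statsmodels 0.14.6 (loess, span 0.3), signals were floored and log2 differences, counts and medians were computed. The number of arrays limits the precision. The procedure was tested on simulated data. The folding and stress genes and all lists were chosen with earlier results of these data known. Named were all 40 genes of the set and, of each other list, the 2 with the largest difference in each direction. Genes named beyond this rule (among them Irf4, Rpn1, Ddost, Stt3b, Magt1, Sec61a2, Ero1b and Hspa1a) were chosen after their values were seen. Alternatives changed the scale between arrays, the floor and the probe set of a gene.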

Additional observations from a re-analysis of the deposited data

How the results depend on the processing

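With 1 array for each population no replicate could be left out. No paired analysis was possible because each group holds 1 array. The counts and medians of the set, the role group medians, and the counts at 2-fold and the median of the pooled other reticulum genes were run under each of 10 alternatives. Those not listed here stayed within 1.5-fold (counts) or within the probe set SD divided by the square root of the number of genes (medians), and the cause of the moves was not tested. Values for promoter elements, single other lists, heat shock genes and complexes were not run under them.

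Centring on the array medians gave medians of -0.82 (set), -0.19 (entry, a change of sign), -1.04 (chaperones), -0.55 (sensors) and -0.45 (other reticulum genes). Centring on housekeeping genes gave 3 genes at least 4-fold brighter in dendritic cells, 2 in eosinophils, medians of -0.18 (set), 0.47 (entry), -0.38 (chaperones), -0.64 (lectin chaperones and isomerases), 0.10 (sensors, a change of sign) and 0.15 (other reticulum genes, a change of sign), and 21 other reticulum genes at least 2-fold brighter in eosinophils. Centring on the spike controls gave 14 genes at least 4-fold and 24 at least 2-fold brighter in dendritic cells, 1 at least 2-fold brighter in eosinophils, and medians of -1.32 (set), -0.95 (entry, a change of sign), -1.80 (chaperones), -2.06 (lectin chaperones and isomerases), -1.20 (degradation), -1.21 (sensors) and -1.15 (other reticulum genes, 49 of them at least 2-fold brighter in dendritic cells, 5 in eosinophils).

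The floor at the 25th percentile (41.4 units) gave 1 gene at least 4-fold brighter in eosinophils (Pdia4) and a degradation median of -0.93. The mean of all probe sets gave medians of -0.31 (set), 0.37 (entry) and -0.041 (other reticulum genes). Probe sets without a suffix gave a chaperone median of -1.11. The dimmest measured probe set gave 1 gene at least 4-fold brighter in eosinophils and medians of -0.36 (set), 0.51 (entry), -1.11 (chaperones), -0.69 (lectin chaperones and isomerases) and 0.13 (degradation, a change of sign), and turned Dnajc3 to 0.72 and Sel1l to 0.43. Signals under 227 units limit Sdf2l1, Sel1l, Syvn1, Atf6, Trib3, Ppp1r15a and Pdia4.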

Other observations

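Genes of COPII vesicles, which carry folded cargo out of the reticulum, had 14 members measured, with 3 at least 2-fold brighter in dendritic cells, 3 in eosinophils and a median of -0.23 as deposited. Paralogs of the coat subunit SEC23 differed in opposite directions: Sec23b gave 1170 units in dendritic cells against 434 units in eosinophils (2.70-fold), while Sec23a gave 1129 and 2651 units (2.35-fold, brighter in eosinophils). Sec24d, a cargo-binding coat subunit, was 2.71-fold brighter in dendritic cells. The cargo receptor Lman1 was at least 3.31-fold brighter in eosinophils, with probe sets from -0.43 to 1.73 on the log2 scale. Paralogs that differed this way within the set and its lists were noticed after the values were seen.

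The oligosaccharyltransferase, set out by complex after the values were seen, had 7 of 9 subunits dimmer and 2 brighter in eosinophils. The 7 include Magt1, whose log2 difference of -0.026 is a lower bound, with the eosinophil signal under the floor. Besides Dad1 and Rpn2, Ddost gave 1398 and 743 units and Rpn1 gave 7300 and 4703 units in dendritic cells and eosinophils. The catalytic subunits were Stt3a, 1.80-fold brighter in eosinophils, and Stt3b, 1.16-fold brighter in dendritic cells. The size of both differences depended on the probe set. For Stt3a, 3 probe sets above the floor ran from 0.026 to 0.846 on the log2 scale. For Stt3b, 2 probe sets stood at -1.979 and -0.211.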
